A study of Rattus norvegicus with 6 samples.

Results

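A group of GABAergic nuclei of the rat nucleus accumbens that carries transcripts of Chst9, a carbohydrate sulfotransferase, was described in 6 single-nucleus libraries. The nuclei were selected on raw counts of unique molecular identifiers (UMIs): at least 2 UMIs of Gad1 and Gad2 together, at least 2 of Chst9, at least 4 of Chst9, Col14a1 and Eya2 together, none of Drd2, at most 1 of the glial genes Mog, Aqp4, Pdgfra and Csf1r, and at most 1 of the cholinergic genes. Of the cholinergic genes only Slc5a7 was used, since Chat and Slc18a3 were not analysed here. A nucleus also needed at least 500 detected genes and at most 5% of its UMIs in mitochondrial genes. This gave 2816 Chst9 nuclei of 64260 barcodes in all, or 4.57% of the 61609 nuclei that passed the gates on genes and mitochondrial UMIs and 9.87% of the 28522 GABA nuclei.

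The rats were Sprague-Dawley, 90 to 120 days old, and all of them had self-administered heroin. Each infusion cost 1 response over the first 7 days and 3 responses over the next 4, a progressive ratio test came on day 12, and the cost was again 3 responses on days 13 and 14. After the last session they received saline or naloxone, an antagonist of opioid receptors, and tissue was taken 1 hour later. Punches from 6 male and 6 female rats were pooled into 6 libraries of mixed sex, saline replicates 1 to 3 and naloxone replicates 4 to 6. Both groups share the heroin history, so the comparison is of naloxone with saline after heroin; rats without heroin were not analysed here. Replicates are libraries of pooled rats, and p-values measure the spread between these libraries.

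The accumbens is built mostly of GABAergic spiny projection neurons, which are usually divided by their dopamine receptors, Drd1 or Drd2, and hold a dense set of signalling proteins around cyclic AMP. The mu opioid receptor, the product of Oprm1, couples to inhibitory G proteins: it lowers adenylyl cyclase activity and, through the G protein beta and gamma subunits, opens inwardly rectifying potassium channels. Heroin acts mainly through this receptor after its conversion to morphine and related compounds, and naloxone displaces such agonists from it.

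Levels are given in CPM: the UMIs of a gene summed over the nuclei of a class in a library, scaled to a fixed total of all genes. The Chst9 nuclei held 2816702 to 4355061 UMIs per library, of 55739350 to 76272798 in the whole library, and their median depth was 6477, 5210 and 7992 UMIs in saline replicates 1, 2 and 3 and 6332, 5808 and 10016 in naloxone replicates 4, 5 and 6. Median mitochondrial shares were 0.125% to 0.408%, with the ranges of both groups overlapping. The libraries shared 463 barcodes, 19 to 45 for each of the 15 pairs, and 2 barcodes belonged to Chst9 nuclei in more than 1 library. Xist, expressed from the inactive X chromosome of females, together with UMIs of Y-linked genes was found in 194 Chst9 nuclei (6.89%), the mark of a droplet with RNA of both sexes. A further measure of mixed content was that 366 Chst9 nuclei (13.0%) held at least 4 UMIs of astrocyte or at least 4 of oligodendrocyte genes. No doublet caller was run. The naloxone, class and sex fits, the share of Chst9 nuclei and the ratios of Oprm1 given below were repeated without the nuclei of the second measure, and the fits and the share also without those of the first.

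The share of Chst9 nuclei did not separate the groups. They made up 9.83%, 9.28% and 10.7% of GABA nuclei in the saline libraries and 9.88%, 9.48% and 10.5% in the naloxone libraries, so the groups overlapped. The means were 9.94% ± 0.725 (SD, n = 3) and 9.97% ± 0.537 (SD, n = 3), a difference of 0.0203 percentage points (two-sided exact permutation test, p = 0.9, where the smallest p that 3 libraries against 3 can give is 0.1).

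Values near the threshold show how sharply the rule separates nuclei. The 117 Chst9 nuclei with exactly 4 UMIs of Chst9, Col14a1 and Eya2 together had 188 CPM of Oprm1 and 1589 CPM of Grm8, against 261 and 3280 CPM over all members. Just outside, 198 nuclei with 2 or 3 such UMIs had 134 CPM of Oprm1 and 1142 CPM of Grm8, and 99 nuclei with a single Chst9 UMI but a sum of 4 or more had 190 and 1745 CPM. A further 70 nuclei that met every other criterion were kept out by 1 Drd2 UMI and had 132 CPM of Oprm1 and 2058 CPM of Grm8. These 3 sets of nuclei outside the rule had median depths of 6914, 7222 and 8665 UMIs, above the 5630 UMIs of the 117 members at the edge and the 6386 of all members. The border is a range of values and not a gap.

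The working name of the nuclei, mu-receptor-rich spiny neurons, was checked against markers. Grm8, the group III metabotropic glutamate receptor 8, was detected in 98.4% of the nuclei, Eya2, a transcriptional coactivator, in 84.9%, Oprm1 in 74.0% and Col14a1, a collagen, in 62.0%. Of 8 spiny neuron markers, 5 lay above the range of oligodendrocyte nuclei, which served as a measure of free RNA: Bcl11b, Rarb, Pde10a, Meis2 and Rgs9. Ppp1r1b and Foxp1 were among those that did not. None of the 4 measured markers of Drd1 spiny neurons, 1 of 5 markers of Drd2 spiny neurons (Sp9, where Drd2 itself was set to 0 by the rule) and 1 of 9 interneuron markers (Nos1) did. All 5 markers of Casz1-Otof neurons did. The summed level of 5 astrocyte markers was 50.8 to 163 CPM in the saline and 60.9 to 82.9 CPM in the naloxone libraries, and that of 5 oligodendrocyte markers 241 to 297 and 175 to 303 CPM, far under the 11938 to 13887 CPM of oligodendrocyte nuclei. Oligodendrocyte nuclei were shallower than Chst9 nuclei, with medians of 1447 to 2333 UMIs, so free RNA can be a larger part of their UMIs. Against cholinergic nuclei, Ppp1r1b was higher and Foxp1 lower in Chst9 nuclei in 6 of 6 libraries. The data thus go in part against the word spiny, and the nuclei are called Chst9 nuclei here.

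Levels were set beside 3 other groups of GABA nuclei from the same libraries, each with at most 1 UMI of Chst9, Col14a1 and Eya2 together. They were 2663 Drd1 nuclei (1 or more Drd1 UMIs, no Drd2), 2234 Drd2 nuclei (2 or more Drd2 UMIs, with Adora2a) and 1132 Casz1-Otof nuclei (4 or more UMIs of Casz1 and Otof together, no Drd2). Drd1 nuclei and Casz1-Otof nuclei can overlap. Since the Chst9 nuclei were chosen by their own expression, these levels are a description and carry no test. Of 8885 genes, 24.1% were above all 3 other groups in every library and 10.0% were below all 3 in every library, which is the background for the counts of gene lists below.

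Oprm1 was higher in Chst9 nuclei than in any other group examined. Its level had a lowest value of 236, a median of 262 and a highest of 294 CPM over the 6 libraries, with a mean of 262 CPM ± 19.3 (SD, n = 6). The means were 41.4 CPM in Drd1, 29.2 CPM in Drd2 and 42.9 CPM in Casz1-Otof nuclei, 158 CPM in cholinergic nuclei and 107 CPM in microglia, the immune cells of the brain. Oligodendrocyte nuclei had 10.2 CPM. The ratio to the highest of the 3 GABA groups in the same library was 5.87 ± 0.603 (SD, n = 6), and its range was 4.73 to 6.43. After every nucleus was thinned to 1000 UMIs, 23.0% of Chst9 nuclei held an Oprm1 UMI (range 21.4% to 23.8%), against 4.23% of Drd1, 3.37% of Drd2, 4.198% of Casz1-Otof and 15.5% of cholinergic nuclei. The background in oligodendrocyte nuclei was 0.908%; 9.96% of those nuclei, on average, were too shallow to be thinned and were left out, against none of the Chst9 nuclei.

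Of the other opioid receptors, 2 followed orders unlike that of Oprm1. Oprd1, the delta receptor, was lowest in Chst9 nuclei, at 4.53 CPM ± 1.28 (SD, n = 6), against 12.7 CPM in Drd1, 75.1 CPM in Drd2 and 15.2 CPM in Casz1-Otof nuclei. Oprk1, the kappa receptor, stood at 17.2 CPM ± 2.94 (SD, n = 6), under the means of Drd1 (30.03 CPM) and Casz1-Otof nuclei (34.3 CPM) and over that of Drd2 nuclei (10.6 CPM). Oprl1, the nociceptin receptor, had 7.89 CPM ± 2.34 (SD, n = 6), against 4.23 CPM in Drd1, 2.37 CPM in Drd2 and 3.38 CPM in Casz1-Otof nuclei. Like Oprm1 it was higher in Chst9 nuclei than in each of these groups in 6 of 6 libraries, though by smaller ratios of 1.86, 3.34 and 2.34. The opioid peptide gene Penk, which encodes the enkephalin precursor, was at 77.9 CPM, below the 129 CPM of Drd2 nuclei and, in 5 of 6 libraries, below oligodendrocyte nuclei (mean 101 CPM). It was above Drd1 (27.97 CPM), Casz1-Otof (34.1 CPM) and cholinergic nuclei (19.2 CPM) in 6 of 6 libraries. At 1000 UMIs 6.95% of Chst9 nuclei held a Penk UMI, against 3.14% of Drd1, 2.78% of Casz1-Otof, 2.00% of cholinergic and 10.1% of oligodendrocyte nuclei. The part of free RNA in the Penk values was not tested. Pdyn, which encodes the dynorphin precursor, was at 6.69 CPM, against 22.3 CPM in Drd1, 2.21 CPM in Drd2, 26.7 CPM in Casz1-Otof and 9.62 CPM in oligodendrocyte nuclei. Pnoc, the nociceptin precursor, was at 0.907 CPM.

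**Figure D1:**
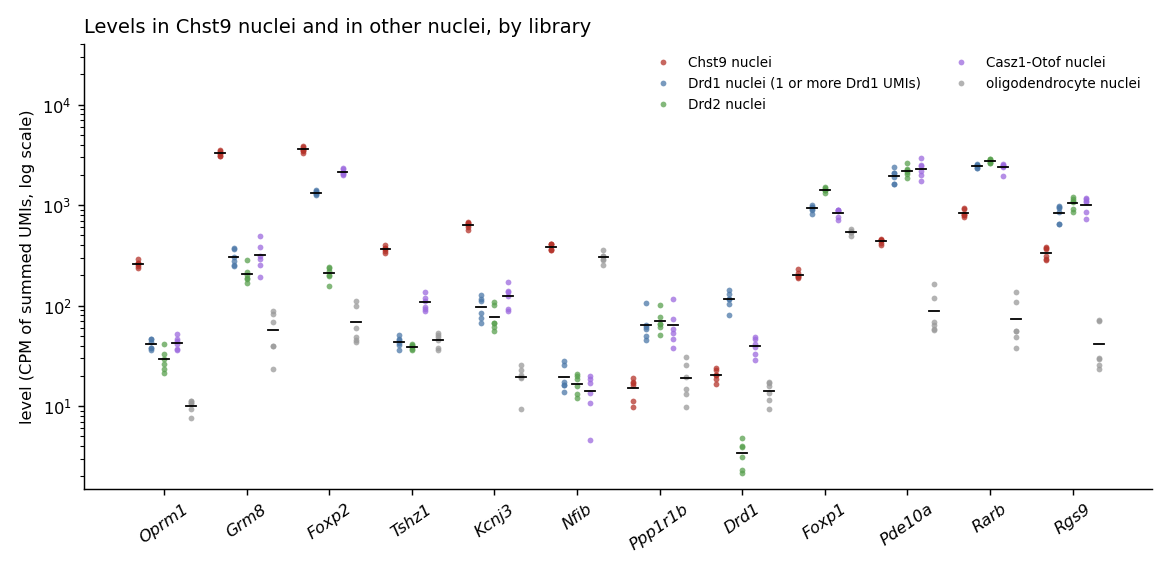
Level of 12 genes in Chst9 nuclei and in 4 other groups of nuclei, in CPM of summed UMIs on a log axis; each point is 1 of 6 libraries and each black bar is the mean. Oprm1, Grm8, Foxp2, Tshz1 and Kcnj3 of Chst9 nuclei lie above all other groups in every library, and Foxp1, Pde10a, Rarb and Rgs9 lie below the 3 other GABA groups; Drd1 and Drd2 took part in the choice of groups.

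Genes of the mu receptor's signalling chain differed member by member. Of 42 listed genes, 36 reached the level at which they were compared, 9 were above all 3 groups in every library and 12 were below. Among the higher ones were 2 pore-forming subunits of the G protein gated potassium channels. Kcnj3 had 638 CPM ± 41.9 (SD, n = 6) against 97.4, 77.2 and 126 CPM in Drd1, Drd2 and Casz1-Otof nuclei. Kcnj6 had 173.5 CPM ± 11.8 (SD, n = 6) against 31.6, 6.61 and 22.8 CPM. A further pore-forming subunit, Kcnj9, was at 16.3 CPM against 11.5, 11.4 and 10.1 CPM and was not above all 3 groups in every library. Higher in every library too were the inhibitory G protein subunits Gnai1 (154 CPM) and Gnai2 (20.5 CPM), the gamma subunit Gng2 (154.5 CPM against at most 42.2 CPM), the receptor kinase Grk3 (44.5 CPM) and the phosphodiesterase Pde4d (1819 CPM).

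The adenylyl cyclases split by isoform. Adcy2 (698 CPM against 321, 50.1 and 343 CPM) and Adcy8 (48.8 CPM against 28.0, 8.70 and 16.3 CPM) were higher in Chst9 nuclei. Adcy5, the main cyclase of striatal projection neurons, was lower at 224 CPM ± 11.6 (SD, n = 6), where the 3 other groups had 563, 562 and 607 CPM, and Adcy1 was lower as well. Lower with Adcy5 were Gnal, the stimulatory G protein subunit that couples striatal Drd1 to it (441 CPM against 703, 779 and 725 CPM), the gamma subunit Gng7 (197 CPM) and the regulator Rgs9 (335 CPM against 839, 1043 and 1012 CPM). Pde10a, a phosphodiesterase abundant in spiny neurons, had 439 CPM against 1953, 2200 and 2309 CPM, and Pde1b, Pde4b and Prkar2b were below all 3 groups too. At 36 genes the shares of 9 above and 12 below can be read against the 24.1% and 10.0% of all genes.

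Genes that mark striatal projection neurons were more often below than above the other groups: 14 of 32 were below and 3 above. Ppp1r1b, which encodes DARPP-32, had 15.2 CPM with a range of 9.87 to 19.2 CPM, within the 9.71 to 31.0 CPM of oligodendrocyte nuclei, whereas the 3 GABA groups had 64.1, 70.4 and 64.4 CPM. At 1000 UMIs, 1.65% of Chst9 nuclei held a Ppp1r1b UMI, under the 2.06% of oligodendrocyte nuclei and above the 0% of cholinergic nuclei. Without thinning these shares were 9.13%, 3.59% and 7.83%, where oligodendrocyte nuclei are the shallowest of the 3. The part of free RNA in the Ppp1r1b values was not tested. Foxp1, a forkhead transcription factor, had 203 CPM against 927, 1427 and 840 CPM, and Rarb, a retinoic acid receptor, 836 CPM against 2455, 2739 and 2376 CPM. The 3 genes above were Foxp2, a second forkhead factor (3574 CPM ± 197, SD, n = 6, against 1332, 209 and 2147 CPM), Tshz1, a zinc finger factor (366 CPM ± 21.2, SD, n = 6, against 43.7, 38.8 and 108 CPM), and Meis2, a homeobox factor (2104 CPM against 1387, 1932 and 1648 CPM). Drd1 was at 20.5 CPM, and 371 Chst9 nuclei (13.2%) held a Drd1 UMI. This was below the 39.7 CPM of Casz1-Otof nuclei and above the 3.396 CPM of Drd2 and the 3.11 CPM of cholinergic nuclei in 6 of 6 libraries each, and above oligodendrocyte nuclei (14.1 CPM) in 5 of 6. At 1000 UMIs 2.14% of Chst9 nuclei held a Drd1 UMI, against 0.338% of Drd2, 0.298% of cholinergic and 1.425% of oligodendrocyte nuclei.

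Markers of the striatal patches and of the surrounding matrix, the compartments in which Oprm1 is known to be uneven, did not move as a block. Of 15 compared genes 4 were above and 4 below the other groups. The patch genes Oprm1, Tshz1, Bach2 and Lypd1 were above, the last at 112 CPM against 52.1, 37.2 and 56.9 CPM. The patch gene Kremen1 was below, at 8.13 CPM against 48.1, 67.5 and 61.0 CPM, as were the matrix genes Epha4 (55.4 CPM against 290, 327 and 280 CPM), Calb1 (7.18 CPM) and Gda (47.4 CPM).

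Receptors, channels and peptides outside the opioid system gave further differences. Among the listed G protein coupled receptors, which do not include Oprm1 or Gpr176, 3 of 38 were above (Grm7, Grm8 and Gabbr2) and 11 below. The lower ones included 3 serotonin receptor genes, Htr4 at 50.3 CPM against 459, 442 and 527 CPM, Htr2c at 172 CPM against 493, 1296 and 238 CPM, and Htr6 at 6.00 CPM. Htr1b, Htr2a and Htr7 were neither above nor below all 3 groups in every library. Among 15 subunits of ionotropic glutamate receptors, Grin3a (387 CPM against 85.9, 20.6 and 123 CPM) and Gria4 were above and 7 were below, with Gria3 at 163 CPM against 519, 720 and 561 CPM. Of 12 GABA-A receptor subunits 2 were above (Gabra3 and Gabrg3) and 3 below (Gabra2, Gabra4 and Gabrd). Of 31 potassium channel genes 9 were above and 12 below. The higher ones included Kcnc2, a fast voltage-gated channel (450 CPM against 159, 70.3 and 118 CPM), and Kcnk10, a leak channel (78.6 CPM against 17, 4.35 and 10.6 CPM). Tac3, a tachykinin precursor, was the single gene above among 6 neuropeptides, at 29.96 CPM against 8.88, 4.83 and 11.1 CPM.

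With the genes of the rule left out, the genes that set Chst9 nuclei furthest apart, ranked by their lowest ratio to the highest of the other groups in any library, were led by Nfib, a nuclear factor I transcription factor. Nfib had 386 CPM ± 27.1 (SD, n = 6) and was at least 13.2 times the level of each group in each library, here with Drd1 nuclei of 2 or more Drd1 UMIs and few Casz1 and Otof UMIs as the first group. Oligodendrocyte nuclei also held 302 CPM of Nfib, so it does not mark Chst9 nuclei among all cells. Nfix, of the same family, followed with a ratio of 8.19, next to Marchf3 (9.30), Col5a1 (9.17) and Arhgap42 (8.63), and Grm8 with 7.28. Nfix was higher in oligodendrocyte nuclei than in Chst9 nuclei (117 against 61.5 CPM). Others among the first 20 were Vwc2l, Sdk2, Tmem108, Sphkap, Cux2, Kcnj3 and Erbb4, the neuregulin receptor, with 10554 CPM. Tmem108 was higher in cholinergic than in Chst9 nuclei (274 against 248 CPM). Cholinergic nuclei also held 563 CPM of Vwc2l (936 in Chst9 nuclei) and 573 CPM of Sphkap (880 in Chst9 nuclei). At the other end Nexn, Slit3, a secreted guidance protein, and Prkch, a protein kinase C, were lowest, with the nearest group at least 8.35, 8.11 and 7.56 times higher.

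Naloxone against saline changed few genes in Chst9 nuclei by the test used. Of 11429 genes tested with edgeR's quasi-likelihood test and Benjamini-Hochberg adjustment, 17 had an adjusted p under 0.05, or 0.149%. Higher were 10 genes (0.0875%) and lower 7 (0.0612%). For 14.9% of genes the 3 saline and the 3 naloxone libraries did not overlap, so lack of overlap alone says little. The median change of all genes was -0.00 on the log2 scale, and 1061 genes had an unadjusted p under 0.05. DESeq2 called 16 genes, 15 of them among the 17. With saline replicates 1, 2 and 3 left out in turn, the count was 7, 5 and 9. In data simulated with these libraries' depth and spread, 78.5% of genes changed by 1 on the log2 scale were recovered. Of those changed by 0.5, 38% were recovered, so smaller changes were mostly not detectable. False calls numbered 2 with no gene changed, 13 with 200 genes changed by 0.5 and 15 with 200 changed by 1, each setting drawn a single time. Some of the 17 calls may therefore be false.

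The lower genes were mainly molecular chaperones of the heat shock response. Chaperones help proteins fold, and the HSP90 and HSP70 machines work through partner proteins that pass substrates between them. Many of their genes are controlled by heat shock factors, which bind repeats of the unit nGAAn in alternating orientation. All 5 chaperone genes called in the Chst9 nuclei fell: Hsph1, Chordc1, Stip1, Hsp90aa1 and Dnaja1. Promoters of 4 of them are in the RefSeq table of build GRCr8, which covers 250 bases before to 50 after each transcription start, and windows that hold heat shock units are printed here because these genes carry the naloxone result. Capitals mark units GAA and TTC that form a pair, GAANNTTC or TTCNNGAA, or a run of 3, GAANNTTCNNGAA or TTCNNGAANNTTC. Both orientations were searched and matches may overlap. Sequences run 5′ to 3′ on the gene's strand. The Hsph1 window is chr12:10427258-10427367 (plus strand), positions -110 to -1 from the start. The Stip1 window is chr1:213657655-213657754 (minus strand), positions -100 to -1. The Chordc1 window is chr8:23650827-23650856 (plus strand), positions 7 to 36, and the Dnaja1 window chr5:60638404-60638433 (plus strand), positions 1 to 30.
Hsph1: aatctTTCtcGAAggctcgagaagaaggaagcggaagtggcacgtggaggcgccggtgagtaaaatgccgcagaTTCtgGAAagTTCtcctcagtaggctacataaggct
Stip1: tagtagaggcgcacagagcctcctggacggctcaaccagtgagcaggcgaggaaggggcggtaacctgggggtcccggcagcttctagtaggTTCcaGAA
Chordc1: accgGAAcgTTCggGAAgaTTCctGAAgca
Dnaja1: ggccgggcgGAActTTCcaGAAcgctcggt

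The Chordc1 window is an unbroken series of alternating units, Hsph1 has a run of 3 with a separate pair upstream, Dnaja1 has a run of 3 and a further pair upstream of the start, outside the printed window, and Stip1 a single pair next to the start. Of all 33469 promoters in the table, 15.9% held a pair and 0.798% a run of 3. Of the 34 listed chaperone genes with 1 entry, 20 (58.8%) held a pair and 7 (20.6%) a run of 3, and the list was put together from genes known for this response. Of the 4 called chaperones with an entry, all 4 held a pair and 3 a run. The 8 other called genes with an entry, among them P4ha1, Sphkap and Calcr, held neither. A match describes letters in the window and does not show binding.

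Hsph1, an HSP110 protein that recharges HSP70 with nucleotide, showed the smallest p of all genes. Its level was 133, 129 and 137 CPM in the saline libraries and 71.2, 66.3 and 84.5 CPM in the naloxone libraries. All 3 naloxone libraries were below all 3 saline libraries, with a wide gap. The log2 change was -0.82 (SE 0.101, adjusted p = 0.002305, edgeR). Chordc1, a zinc-binding partner of HSP90, was at 111, 93.3 and 95.4 CPM after saline and 57.2, 45.4 and 59.9 CPM after naloxone, again without overlap, a change of -0.85 (SE 0.118, adjusted p = 0.004305, edgeR). Stip1, which joins HSP70 to HSP90, was at 69.2, 68.5 and 72.3 CPM after saline and 46.1, 41.1 and 44.6 CPM after naloxone. It fell by 0.66 on the log2 scale (SE 0.104, adjusted p = 0.0137, edgeR).

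Hsp90aa1, the inducible form of HSP90, was at 120.4, 105 and 109 CPM in the saline and 65.6, 87.5 and 72.6 CPM in the naloxone libraries, and fell by 0.55 (SE 0.101, adjusted p = 0.02797, edgeR). Dnaja1, a J-domain partner of HSP70, was at 107, 99.5 and 91.1 CPM and then 64.0, 70.9 and 67.3 CPM, and fell by 0.54 (SE 0.0945, adjusted p = 0.02626, edgeR). Neither gene's groups overlapped. The calls of Stip1, Hsp90aa1 and Dnaja1 were lost when single libraries were left out, the adjusted p reaching 0.0773 for Stip1 without saline replicate 3, and 0.239 for Hsp90aa1 and 0.205 for Dnaja1 without saline replicate 1. Hsph1 and Chordc1 passed without any of the 6 libraries.

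No other gene of the chaperone list passed the test. Of all 33 list members tested, the 5 called genes included, 26 had a negative change, 16 had an unadjusted p under 0.05 and all 16 of these were lower, and none was called higher. The median change of the list was -0.27, against -0.00 for all genes tested, of which 4.72% were lower at an unadjusted p under 0.05. The list was chosen with earlier results of these data known. Its counts and median are therefore a description and no separate support for the fall. Fkbp4, an immunophilin of the HSP90 machine, had 28.8, 18.9 and 23.9 CPM after saline and 15.3, 13.9 and 10.3 CPM after naloxone (log2 change -0.85, adjusted p = 0.1402, edgeR). Hspa8, the constitutive HSP70, had a mean of 43.7 CPM ± 1.55 (SD, n = 3) after saline and 32.5 CPM ± 4.33 (SD, n = 3) after naloxone (-0.40, adjusted p = 0.3593, edgeR). Cct8 and Cct4, subunits of the chaperonin ring, had changes of -0.50 and -0.32. Members with changes near 0 included Hspa4 (-0.03), Dnajb6 (-0.05) and Dnaja2 (0.02), and Hsf1, a heat shock factor itself, was at 37.7 and 39.4 CPM. Without 1 library at a time, 2 to 6 members were called lower and 10 to 17 were lower at an unadjusted p under 0.05. The lowest of these counts, 2 called and 10 lower, came without saline replicate 1, and 2 were called without saline replicate 2 as well. The median lay between -0.32 and -0.21.

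**Figure D2:**
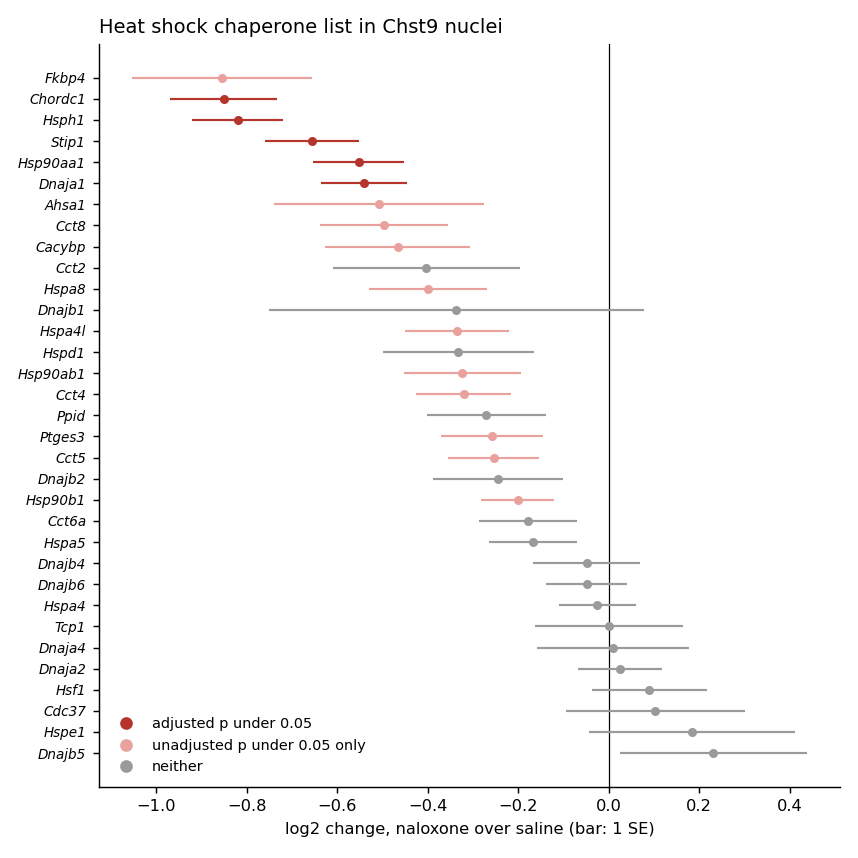
Log2 change, naloxone over saline, of the 33 tested chaperone genes in Chst9 nuclei, with 1 standard error to each side; colour gives the result of edgeR's test. The 5 called genes lie between -0.85 and -0.54, 16 genes with an unadjusted p under 0.05 are all on the lower side, and 7 genes lie at or above 0.

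The 2 remaining lower genes are not listed chaperones. P4ha1, the catalytic subunit of prolyl 4-hydroxylase in collagen synthesis, was at 148, 138 and 138 CPM after saline and 95.5, 98.1 and 107 CPM after naloxone, a fall of 0.47 (SE 0.0865, adjusted p = 0.02797, edgeR). A630010A05Rikl, a gene known by its clone name, was at 83.8, 61.5 and 87.3 CPM and then 38.7, 49.0 and 37.2 CPM (-0.89, SE 0.135, adjusted p = 0.009911, edgeR). The groups of both genes were apart. Both calls were lost when some libraries were left out, the adjusted p reaching 0.239 for P4ha1 without saline replicate 1 and 0.0773 for A630010A05Rikl without saline replicate 3.

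The higher genes had no common function in the lists used. The largest change was in ENSRNOG00000063531, a gene without a symbol in the files, with 1.78, 1.69 and 6.45 CPM after saline and 25.3, 18.2 and 15.4 CPM after naloxone (2.50, SE 0.347, adjusted p = 0.004305, edgeR), from 5 to 24 UMIs per saline library and 55 to 78 per naloxone library. Spetex2l3 was at 5.68, 9.87 and 9.40 CPM and then 24.0, 28.8 and 16.5 CPM (1.43, adjusted p = 0.0137, edgeR). It belongs to a family of near-identical copies, so the assignment of its UMIs is uncertain. Both are low genes whose groups did not overlap.

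Calcr, the receptor of calcitonin and, with its accessory proteins, of amylin, was the single called gene of the 39 listed G protein coupled receptor genes tested. Its level was 7.46, 7.05 and 10.2 CPM in the saline and 26.6, 20.5 and 14.2 CPM in the naloxone libraries (1.28, SE 0.243, adjusted p = 0.03697, edgeR). This rests on 21 to 82 UMIs per library. Without thinning, 2.53% to 5.05% of Chst9 nuclei held a Calcr UMI, against a mean of 23.1% of Drd2 nuclei. The naloxone libraries were all higher, and they differed among themselves nearly as much as from saline. The adjusted p was 0.158 among members with few astrocyte and oligodendrocyte UMIs, and up to 0.206 with a library left out (saline replicate 1). Gpr176, an orphan G protein coupled receptor outside that list, was called too. It was at 175, 152.5 and 173 CPM and then 226, 245 and 217 CPM (0.47, SE 0.081, adjusted p = 0.02375, edgeR), without overlap.

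Sphkap, an anchoring protein for protein kinase A and among the genes that set Chst9 nuclei apart, was at 848, 656 and 571 CPM after saline and 926, 1205 and 1074 CPM after naloxone. The groups did not overlap, although saline replicate 1 came close to naloxone replicate 4. Its change was 0.64 (SE 0.116, adjusted p = 0.02797, edgeR), and DESeq2 gave an adjusted p of 0.3594. Ubash3b, which belongs to a family of phosphatase-like regulators of signalling, was at 40.8, 46.5 and 53.7 CPM and then 77.3, 74.2 and 73.5 CPM (0.68, SE 0.109, adjusted p = 0.0137, edgeR), and the naloxone libraries lay close together.

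Nek5, a kinase of the NIMA family, had a mean of 28.1 CPM ± 4.94 (SD, n = 3) after saline and 55.1 CPM ± 16.9 (SD, n = 3) after naloxone (0.96, adjusted p = 0.02719, edgeR). Ercc6l2, a DNA repair helicase, had 158 and 213 CPM (0.44, adjusted p = 0.03177, edgeR), and Zc3h6, a zinc finger protein, 137 and 184 CPM (0.44, adjusted p = 0.04913, edgeR). Adamts5, an extracellular protease, is named beyond the rule on levels, at 4.46 and 11.7 CPM (1.41, adjusted p = 0.02719, edgeR; DESeq2 0.09915). Just outside the threshold were Trim39 (0.78, adjusted p = 0.05546, edgeR) among the higher genes and Haus2 (-0.87, adjusted p = 0.05227, edgeR), Pot1b and Slc5a3 among the lower ones. Each of the called genes other than Chordc1, Hsph1 and ENSRNOG00000063531 lost its call under at least 1 of the alternatives run.

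**Figure D3:**
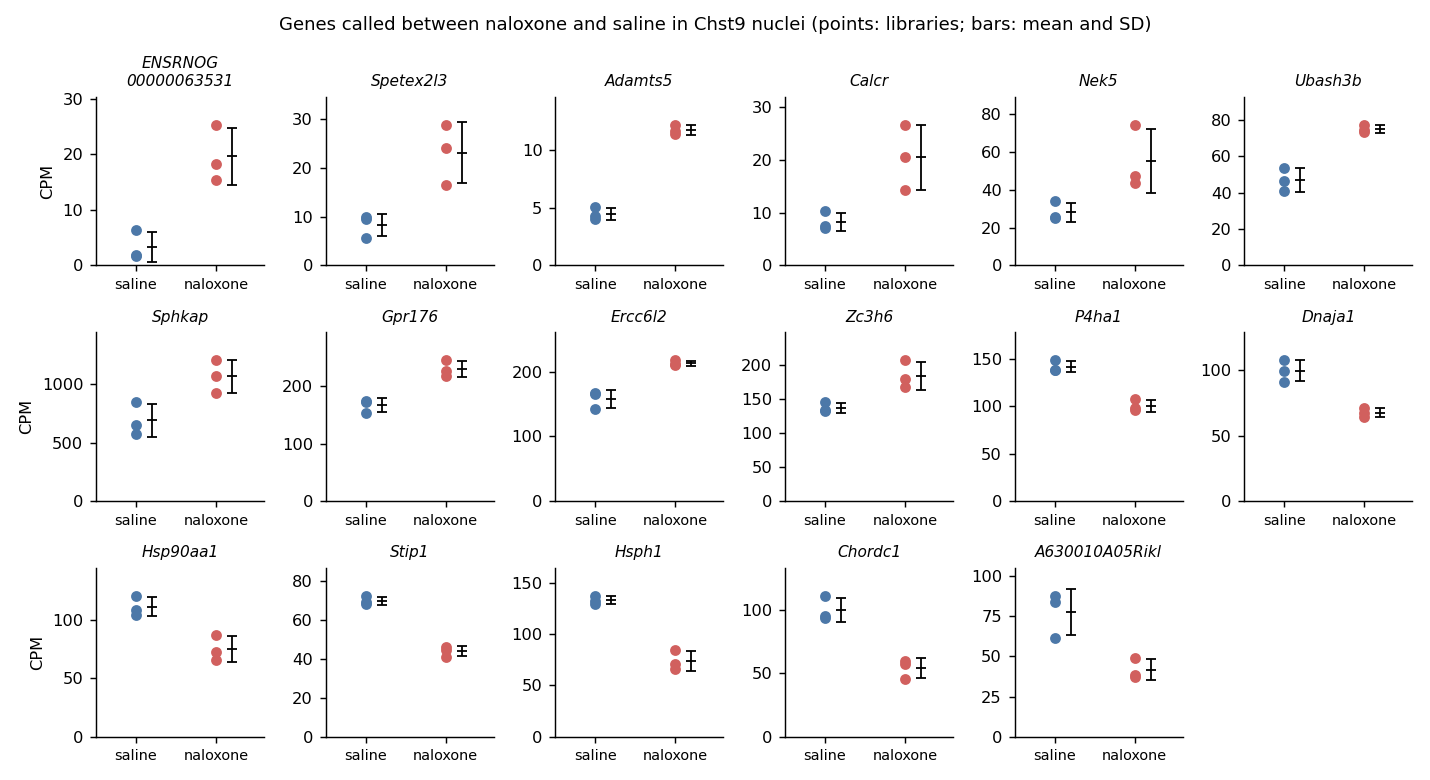
CPM of summed UMIs of the 17 genes called between naloxone and saline in Chst9 nuclei, 1 panel per gene with the axis from 0; points are libraries and bars give mean and SD of 3. No panel shows overlap of the groups; Hsph1, Stip1 and Ubash3b have tight groups, while Calcr, Nek5 and A630010A05Rikl spread more.

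The opioid genes themselves were not called. Oprm1 was at 268, 236 and 260 CPM after saline and 249.5, 294 and 264 CPM after naloxone, so the groups overlapped, with a change of 0.09 (SE 0.0803, adjusted p = 0.7932, edgeR). Oprl1 had the smallest p of the 4 receptors, with 8.52, 8.18 and 12.1 CPM and then 6.50, 5.63 and 6.43 CPM (-0.62, unadjusted p = 0.0281 and adjusted p = 0.4807, edgeR), from 17 to 45 UMIs per library. Oprd1 (-0.61, adjusted p = 0.5896, edgeR) and Oprk1 (0.18, adjusted p = 0.8291, edgeR) were not called, nor were Penk (0.19) and Pdyn (-0.14). Grm8 had 3209 and 3346 CPM (0.07, adjusted p = 0.8268, edgeR).

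Other lists held no called gene. Among 40 tested genes of mu receptor coupling, none was called by edgeR or DESeq2. In edgeR 4 of these 40 had an unadjusted p under 0.05, against 1061 of all 11429 genes tested. The largest of these 4 changes was in Pde1b, with 52.9, 51.9 and 49.4 CPM after saline and 36.4, 35.5 and 40.4 CPM after naloxone (-0.43, adjusted p = 0.2024, edgeR). The others were Gnal (-0.22), Gnb1 (0.22) and Gng2 (0.23). Of 11 tested genes induced by neuronal activity none was called by either tool. Homer1, a postsynaptic scaffold with an activity-induced short form, was at 184, 197 and 179 CPM and then 250.5, 267 and 198 CPM (0.36, adjusted p = 0.1818, edgeR), and Vgf, a secreted peptide precursor, had 9.71 and 13.5 CPM.

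Of 12 tested glucocorticoid targets none was called by either tool and 4 had an unadjusted p under 0.05. Klf9 was at 49.7, 53.8 and 50.5 CPM after saline and 58.8, 80.8 and 69.1 CPM after naloxone (0.45, adjusted p = 0.1666, edgeR), and Fkbp5 had 24.4 and 32.2 CPM (0.39, adjusted p = 0.4369, edgeR). Neither edgeR nor DESeq2 called a gene of the striatal projection neuron, patch and matrix, neuropeptide, GABA-A, glutamate receptor or potassium channel lists. Unadjusted p under 0.05 (edgeR) was found for 6 of 31, 4 of 15, 1 of 8, 1 of 12, 0 of 15 and 2 of 33 of their tested genes. Over all genes tested it was found for 1061 of 11429, which is also the background for the glucocorticoid targets.

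The same comparison was fitted in the other GABA nuclei, which come from the same 6 libraries as the Chst9 nuclei. Called genes were 1 of 11785 (0.00849%) in Drd1 nuclei, 10 of 11490 (0.0870%) in Drd2 nuclei and 0 of 9833 (0%) in Casz1-Otof nuclei, where edgeR, the single tool run there, gave 755 genes with an unadjusted p under 0.05. Of the 17 genes called in Chst9 nuclei, 16 were tested in each other group. In Drd1, Drd2 and Casz1-Otof nuclei 15, 16 and 16 of them had the same sign, and 1, 4 and 0 were called. Sphkap had the other sign in Drd1 nuclei (-0.03). The share of all genes with the same sign was not computed, so the counts of signs have no background to be read against. A630010A05Rikl changed by -1.12 in Drd1 (adjusted p = 0.007355, edgeR) and -1.30 in Drd2 nuclei (adjusted p = 0.03286, edgeR), against -0.89 in Chst9 nuclei. Hsph1 was at 134 and 90.0 CPM in Drd1 nuclei (-0.58, adjusted p = 0.05669, edgeR), 129 and 85.6 CPM in Drd2 nuclei (-0.56, adjusted p = 0.05947, edgeR) and 124 and 90.3 CPM in Casz1-Otof nuclei (-0.45, adjusted p = 0.2885, edgeR). Chordc1 changed by -0.69 in Drd2 nuclei (adjusted p = 0.03286, edgeR), and its values in Drd1 and Casz1-Otof nuclei were -0.79 and -0.66 (adjusted p = 0.05669 and 0.2113, edgeR). The chaperone list had 14 of 33 members lower at an unadjusted p under 0.05 in Drd1 nuclei, 8 of 34 in Drd2 nuclei and 8 of 32 in Casz1-Otof nuclei, with medians of -0.26, -0.19 and -0.22. Of all genes tested in these groups, 4.97%, 4.33% and 3.55% were lower at that threshold, with medians of 0.0001, 0.0029 and 0.0059. The counts of the list too are a description, since the list was chosen with earlier results of these data known. No chaperone gene passed the test of a difference in change between Chst9 nuclei and another group. For Hsph1 the change in Chst9 nuclei minus that in Drd1 nuclei was -0.24 (95% interval -0.43 to -0.05, adjusted p = 0.6944, edgeR). It was -0.27 against Drd2 nuclei (95% interval -0.46 to -0.07, adjusted p = 0.6541, edgeR) and -0.36 against Casz1-Otof nuclei (95% interval -0.59 to -0.12, adjusted p = 0.8193, edgeR). All 3 intervals, which are not adjusted for the number of genes, lay below 0, and they share the Chst9 values. Hsph1 had the smallest p of all genes in Chst9 nuclei, and picking it for that favours a larger change there. The intervals are also narrower than edgeR's test. That of P4ha1 against Drd2 nuclei was -0.4301 to -0.0014 at an unadjusted p of 0.05969 (edgeR). No difference is concluded from them. For Chordc1 the difference from Drd1 nuclei was -0.05 (95% interval -0.28 to 0.17, adjusted p = 0.9813, edgeR).

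Whether the response differs between classes was tested with a class by treatment term and the library as a block. Against Drd1 nuclei with 1 or more Drd1 UMIs, a group chosen after the data were seen, 5 of 12610 genes (0.0397%) differed. Sphkap was at 75.5 and 74.4 CPM in those Drd1 nuclei, so its change was larger by 0.71 in Chst9 nuclei (SE 0.113, adjusted p = 0.02323, edgeR). Meis1, a homeobox factor, had 115 and 147 CPM in Chst9 nuclei and 77.8 and 67.7 CPM in Drd1 nuclei, a difference of 0.60 (SE 0.105, adjusted p = 0.03511, edgeR). In Jcad, a junction protein (difference 0.96), Ankfn1 (-0.84) and Tcerg1l (-0.66), the difference lay more in the Drd1 values. Jcad had 17.97 and 21.6 CPM in Chst9 nuclei and 59.9 and 38.0 CPM in Drd1 nuclei (adjusted p = 0.03481, edgeR). Ankfn1 had 213 and 219 CPM in Chst9 nuclei and 54.6 and 102 CPM in Drd1 nuclei (adjusted p = 0.009652, edgeR). The narrower Drd1 group, which was the planned one, with 2 or more Drd1 UMIs and few Casz1 and Otof UMIs, had only 32 to 67 nuclei per library. Against it 0 of 11337 genes (0%) differed by edgeR and none by DESeq2, with 535 at an unadjusted p under 0.05 by edgeR, and 1 gene differed without naloxone replicate 5.

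Against Drd2 nuclei 1 of 12416 genes (0.00805%) differed: Fgfr1, a receptor of fibroblast growth factors. It had 11.01, 15.2 and 16.7 CPM after saline and 11.7, 10.9 and 11.3 CPM after naloxone in Chst9 nuclei, which overlap, and 2.70, 2.81 and 2.24 CPM and then 7.94, 8.07 and 7.12 CPM in Drd2 nuclei, which do not. The difference was -1.95 (SE 0.329, adjusted p = 0.04275, edgeR), and DESeq2 called no gene. With saline replicates 1, 2 and 3 and naloxone replicates 4, 5 and 6 left out in turn, 5, 3, 7, 18, 13 and 0 genes were called. Ubash3b rose by 1.37 in Drd2 nuclei (adjusted p = 0.006093, edgeR) and by 0.68 in Chst9 nuclei, and this difference was not called (-0.71, adjusted p = 0.1993, edgeR). Calcr, at 93.8 and 148.5 CPM in Drd2 nuclei, rose there by 0.68 (adjusted p = 0.03033, edgeR), and its change in Chst9 nuclei was larger by 0.60 without passing (95% interval 0.19 to 1.00, adjusted p = 0.5824, edgeR). In Drd1 nuclei its change was 1.76 (adjusted p = 0.186, edgeR), more than in Chst9 nuclei, a difference of -0.44 (95% interval -1.18 to 0.30, adjusted p = 0.9163, edgeR), and in Casz1-Otof nuclei 1.04 (adjusted p = 0.5778, edgeR).

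Against Casz1-Otof nuclei 1 of 12067 genes (0.00829%) differed: Ebf1, a transcription factor of Drd1 neurons. It was low in Chst9 nuclei, with 14.6, 15.8 and 5.10 CPM after saline and 5.198, 5.63 and 4.36 CPM after naloxone, near the 10.8 CPM of oligodendrocyte nuclei. In Casz1-Otof nuclei it was at 66.2, 32.8 and 19.5 CPM and then 158, 68.5 and 78.4 CPM. The difference was -2.54 (SE 0.321, adjusted p = 0.002326, edgeR). No gene was called among members with few astrocyte and oligodendrocyte UMIs or without saline replicate 2, while 2 were called without naloxone replicate 4 and 8 without naloxone replicate 5. In simulated data the class terms recovered 33% to 67% of genes whose change differed by 1 on the log2 scale. With no difference simulated, the terms against Drd2 and Casz1-Otof nuclei each called 1 gene, as many as in the measured data. Those against either Drd1 group called 0. Each setting was drawn a single time and held no library effect shared by the classes, so these counts are not rates of false calls.

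Nuclei were sexed by Xist and by 4 genes of the Y chromosome, which gave 1190 female and 1138 male Chst9 nuclei. A library holds few rats of each sex, so sex and animal cannot be told apart. Of 10382 genes, 8 (0.0771%) differed between male and female nuclei with the library as a block, and Xist and the 4 Y-linked genes among them had chosen the sexes. The other 3 were Kdm6a, an X-linked histone demethylase, and 2 genes named by identifiers, LOC103694537 and ENSRNOG00000065796. Kdm6a was at 307, 314, 311, 324, 287 and 328 CPM in female nuclei and 257, 253, 231, 248, 212 and 215 CPM in male nuclei of replicates 1 to 6, lower in male nuclei in 6 of 6 libraries (-0.41, SE 0.0622, adjusted p = 0.002731, edgeR). LOC103694537 was at 1.00 CPM in female and 27.0 CPM in male nuclei, and ENSRNOG00000065796 at 402 and 7.59 CPM. Oprm1 was at 274 CPM ± 15.9 (SD, n = 6) in female and 277 CPM ± 36.3 (SD, n = 6) in male nuclei (0.01, adjusted p = 0.998, edgeR).

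The naloxone change differed between male and female nuclei for 3 of 10382 genes (0.0289%). Edil3, an integrin-binding matrix protein, was at 162, 150 and 163 CPM in female nuclei after saline and 110, 72.8 and 90.2 CPM after naloxone. In male nuclei it was at 82.9, 92.8 and 67.8 CPM after saline and 158, 60.9 and 179 CPM after naloxone. The female groups were apart and the male groups overlapped through naloxone replicate 5, and the difference was 1.5 (SE 0.223, adjusted p = 0.008878, edgeR; DESeq2 0.08404). Nxph1, a neurexin ligand, had female means of 119 and 63.6 CPM and male means of 60.6 and 111 CPM (1.85, SE 0.265, adjusted p = 0.008878, edgeR). Its female groups overlapped, at 80.1, 181.7 and 94.3 CPM after saline and 88.2, 50.4 and 52.3 CPM after naloxone, and its male groups were apart. Kcnh8, a potassium channel, had 13.5 and 3.001 CPM in female and 3.11 and 15.5 CPM in male nuclei (4.45, adjusted p = 0.02754, edgeR), and DESeq2 gave an adjusted p of 0.8385. Its female groups were apart. Its male groups overlapped, with naloxone replicate 5 at 3.96 CPM and saline replicate 2 at 5.12 CPM. The call of Nxph1 was lost without saline replicate 2 or 3, that of Edil3 without any 1 of the saline replicates, and that of Kcnh8 without any 1 of 5 libraries (all but naloxone replicate 5). Without saline replicate 1 the count of called genes was 1, and without saline replicate 2 it was 0. No gene was called with members chosen by a stricter rule (at least 3 Chst9 UMIs and a sum of 8) or a looser one (1 and 2). Both Edil3 and Nxph1 are found in a minority of the Chst9 nuclei, as described next.

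**Figure D4:**
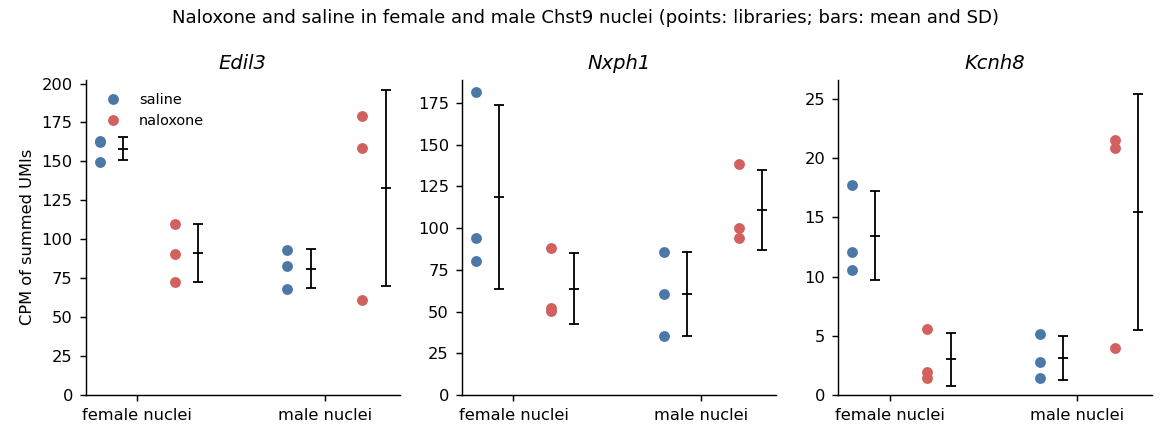
CPM of summed UMIs of Edil3, Nxph1 and Kcnh8 in female and male Chst9 nuclei after saline and naloxone; points are the 3 libraries of each group, bars are mean and SD. In female nuclei the naloxone means are lower and in male nuclei higher, and naloxone replicate 5 is the lowest male naloxone point for each gene.

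Variation among the Chst9 nuclei was described after thinning each to 3000 UMIs, which left 2697 nuclei and left out 119 (4.23%) that were shallower. Genes were ranked by the lowest of their 6 Fano factors, the variance over the mean in a library, which had a median of 0.957 over 6971 genes. The first 12 were Kcnip4, Trpm3, Erbb4, Lrrtm4, Il1rapl2, Galntl6, Pcdh9, Tenm3, Gpc5, Nrg1, Zfp804b and Nrg3. Most of them were found in most nuclei. Il1rapl2, a synaptic adhesion protein of the interleukin receptor family, was different: 6.86% to 10.6% of nuclei held a UMI. It follows from this share that the 10% of nuclei with the most of its UMIs held nearly all of them, at least 98.7% in each library. Gpc5, a glypican, was found in 14.5% to 23.8% and Zfp804b in 12.5% to 20.4%. Chosen after their values were seen, Htr2c was found in 13.7% to 18.1%, Adamtsl1 in 4.13% to 9.39%, Nxph1 in 8.23% to 12.9% and Edil3 in 15.8% to 27.9%. Oprm1 was spread more evenly, with a Fano factor of 1.14 to 1.55 and a UMI in 48.1% to 53.3% of nuclei.

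Nuclei with Il1rapl2 UMIs had less Oprm1, with 0.432 UMIs per nucleus against 0.845 in the nuclei without, and the value was lower in 6 of 6 libraries. They had more Hs6st3, a heparan sulfate sulfotransferase (1.89 against 0.548), Htr7, a serotonin receptor (0.19 against 0.0215), and Trpm3, a cation channel (10.2 against 5.64), each in 6 of 6 libraries. Nuclei with Adamtsl1 also had more Hs6st3 (2.80 against 0.514) and Trpm3 (10.6 against 5.66) and less Oprm1 (0.513 against 0.835), each in 6 of 6 libraries, while Htr7 was higher in 3 libraries and lower in 3. Nuclei with Htr2c had lower Oprm1 (0.564 against 0.859), Grm8 (8.33 against 10.99), Erbb4 (25.01 against 35.4) and Chst9 (4.07 against 5.38). Chst9, on which the rule rests, was lower in 6 of 6 libraries also in nuclei with Gpc5 (4.12 against 5.42), Nxph1 (4.12 against 5.29) and Edil3 (4.43 against 5.36). All values are UMIs per nucleus after thinning, and nuclei of a library are not replicates, so no test is given.

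Nuclei with Gpc5 carried astrocyte genes. Slc1a2, the glial glutamate transporter, was at 0.652 UMIs per nucleus in them against 0.0515 in those without, Slc1a3 at 0.181 against 0.0557 and Bcan at 0.0876 against 0.0181, each higher in 6 of 6 libraries. The part of glial RNA in the Gpc5 values was not tested. Sox6, a transcription factor, was at 0.285 against 0.0292 in nuclei with Gpc5 and at 0.383 against 0.0412 in nuclei with Nxph1. In members with few astrocyte and oligodendrocyte UMIs the ratio of Oprm1 in nuclei with Il1rapl2 to those without was 0.503, against 0.512 in all members.

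**Figure D5:**
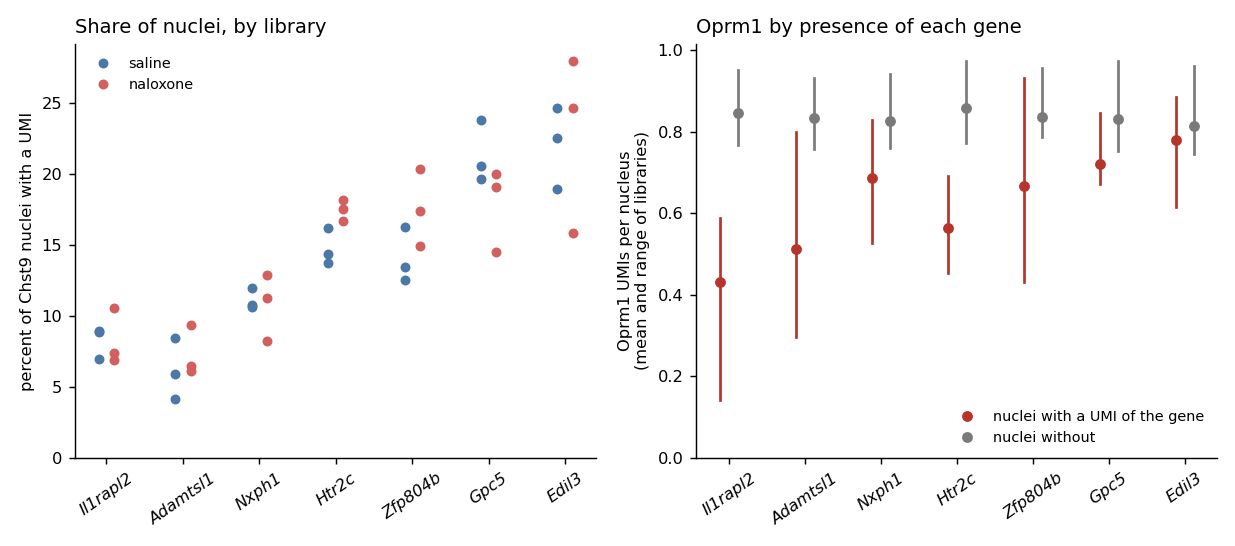
Left, percent of Chst9 nuclei with a UMI of 7 genes after thinning to 3000 UMIs, by library; right, Oprm1 UMIs per nucleus in nuclei with and without a UMI of each gene, with the mean and range of 6 libraries. The shares of the saline and naloxone libraries interleave for most genes, and the Oprm1 means of nuclei with Il1rapl2, Adamtsl1 and Htr2c (0.432, 0.513 and 0.564) lie below those of nuclei without.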

How the data were processed

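Nuclei from nucleus accumbens punches were profiled with 10x GEM-X 3' v4 kits, per the labels' protocols, in 3 saline and 3 naloxone libraries. The deposited values are raw UMI counts per gene and barcode with no normalization, made with Cell Ranger 9.0.1 per the file headers; Seurat 5.2.1, R 4.4.0 and build mRatBN7.2 are named in the submitters' processing notes. The labels state 44592 nuclei and about 23000 read pairs per nucleus, and the files hold 64260 barcodes, 61609 of them past the gates of 500 genes and 5% mitochondrial UMIs. Cell annotations and doublet calls of the authors were not used here. The annotation release and the use of intronic reads are not given in the sources used here.

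The 25629 genes carry the identifiers of the files, and 289 symbols shared by more than 1 gene were kept apart by them. Also not analysed here were Cort, Dusp1, Junb, Kcnb2, Npy2r, St13 and Tac1 of the gene lists. The members and the gene lists were chosen with earlier results of these data known. Counts were summed per library over Chst9 nuclei, and the sums were tested with edgeR 4.0.16 (quasi-likelihood, TMM factors, default filter on low counts, Benjamini-Hochberg over all genes tested, 0.05) in R 4.3.3 with limma 3.58.1. DESeq2 1.42.0 was an alternative. Class and sex terms had the library as a block. Replicate libraries differed by more than counting noise (chi-square per degree of freedom 1.69 to 3.91). Female nuclei had 2 or more Xist UMIs and no Y-linked UMI, male nuclei at most 1 Xist UMI and a Y-linked UMI. Shares were compared by exact permutation in Python 3.11.15 with numpy 2.4.6, scipy 1.17.1 and pandas 2.3.3. Shares of nuclei with a UMI used nuclei thinned to 1000 UMIs, and variation among nuclei used 3000 UMIs. The fits were tested on simulated data with 200 changed genes.

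Named naloxone genes are the up to 10 with the largest change in each direction among called genes with a mean of at least 10 CPM and groups that do not overlap, called list members, up to 10 per direction filled with the smallest p that missed the test, and the opioid genes. Named levels are the 20 genes highest and 10 lowest against the 3 other groups at 20 CPM or more in a class, with the genes of the rule left out, and variation the 12 whose lowest Fano factor over the libraries was highest, at 0.05 UMIs per nucleus or more. Figures were drawn with matplotlib 3.10.9. Promoters are 300 bases from the RefSeq table of GRCr8, matched by symbol for 34 of 40 chaperones and 12 of 17 called genes; no coordinates of the files' build are given. Intervals are 95%, from the standard error times 1.96, and can leave out 0 where edgeR's test gives an unadjusted p above 0.05.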

Additional observations from a re-analysis of the deposited data

Results flagged for a closer look

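These values differed between 2 groups by a test of the difference itself (edgeR's quasi-likelihood test with the library as a block, Benjamini-Hochberg adjustment). Between classes, the naloxone change of Chst9 nuclei minus that of the other class was -1.95 for Fgfr1 against Drd2 nuclei and -2.54 for Ebf1 against Casz1-Otof nuclei. Against Drd1 nuclei with 1 or more Drd1 UMIs, a group chosen after seeing the data, it was -0.84 for Ankfn1, -0.66 for Tcerg1l, 0.60 for Meis1, 0.71 for Sphkap and 0.96 for Jcad, while the planned narrower Drd1 group gave 0 called genes. Of these, Sphkap was also called by the comparison within Chst9 nuclei and is among the genes highest in them against the other groups. Fgfr1 had 14.3 and 11.3 CPM in Chst9 nuclei after saline and naloxone, and 2.59 and 7.71 CPM in Drd2 nuclei. In a single draw of data simulated with no difference, the terms against Drd2 and Casz1-Otof nuclei each called 1 gene as well.

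Between the sexes, the naloxone change in male minus that in female Chst9 nuclei was 1.5 for Edil3, 1.85 for Nxph1 and 4.45 for Kcnh8. Edil3 and Nxph1 were each found in a minority of the nuclei. Kcnh8 had an adjusted p of 0.8385 by DESeq2 and 0.6382 by edgeR among members with few astrocyte and oligodendrocyte UMIs. The causes of these differences were not tested, and groups of 3 libraries are too small for a check of single outlying samples.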

How the results depend on the processing

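The count of 17 naloxone genes was 125 with no filter on low counts, 11 without nuclei that hold Xist and Y-linked UMIs and 8 with members thinned to 1 depth, and 5 to 17 with a library left out. RLE factors, DESeq2, 1000 genes per nucleus, a stricter rule, a looser rule and few glial UMIs gave 14 to 18, and sums by sex 19. Of 272 values of the called genes under alternatives, 189 stayed past the threshold, 83 did not and 0 changed sign. The count against the narrower Drd1 group (0) was 12 with no filter, 5 with Drd1 nuclei from 1 UMI (chosen after seeing the data) and 0 to 1 with a library left out. Against Drd2 nuclei (1) it was 0 by DESeq2, 51 with no filter, 0 without Xist and Y nuclei, 3 under the stricter and 2 under the looser rule, 0 with few glial UMIs (chosen after seeing the data), and 0 to 18 with a library left out. Against Casz1-Otof nuclei (1) it was 32 with no filter, 0 with few glial UMIs and 0 to 8 with a library left out. The sex count (8) was 24 with no filter and 8 to 10 with a library left out. The sex by treatment count (3) was 1 by DESeq2, 31 with no filter, 0 under the stricter and 0 under the looser rule, and 0 to 4 with a library left out. The difference in share (0.0203) was -0.0796 as percent of all kept nuclei, -0.3217 with the rule applied after thinning, and -0.3113 to 0.4075 with a library left out. Signs turned for genes that were not called: Oprd1 was 0.0348 without Xist and Y nuclei, and Pdyn was 0.0853 under the looser rule, 0.0062 with few glial UMIs and 0.0374 when thinned. With a library left out Oprk1 ranged from -0.0014 to 0.307, Drd1 from -0.0441 to 0.1948 and Pdyn from -0.3119 to 0.1213. The causes were not tested. No paired analysis was possible because the saline (1 to 3) and naloxone (4 to 6) libraries share no replicate number. At the depth, spread and number of these libraries, 0.5% to 26.5% of simulated differences of 0.5 (log2) between classes and 2.5% between sexes were recovered.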
